A study of Mus musculus with 3 samples.

Results

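This group of transcriptional regulators of blood stem cells, 10 genes of the 56980 features counted, was followed across 3 droplet libraries of mouse bone marrow nucleated cells. Its members were Mecom, Hlf, Meis1, Prdm16, Nkx2-3, Mycn, Hoxa9, Hoxb5, Mllt3 and Tcf15. The genes were taken by symbol, and each symbol matched 1 row. All mice were C57BL/6, the methods name males, and their age is not given in the sources used here. The Control library came from mice without irradiation, the IR library from mice that received 6.0 Gy of total body gamma irradiation and the solvent, and the IR+CBD library from mice that received 6.0 Gy and 4 injections of cannabidiol (CBD) at 50 mg/kg, given before and after exposure. Marrow was taken at day 14. Each library pooled 3 mice. Sorted cells were recombined before capture, with 5 parts of Lin-Kit+, 4 of Lin-Kit- and 1 of Lin+ cells, and shares below describe that blend rather than native marrow. With 1 library per condition no test between conditions was possible. Intervals are 95% intervals that cover counting error only, not the spread between mice.

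Blood stem cells keep a small set of transcription factors active while they rest, and lose them as they divide and commit to a lineage. Mecom and Prdm16 encode related PR domain zinc finger proteins needed to maintain the stem cell pool. Hlf is a PAR bZIP factor that marks stem and early progenitor cells, Meis1 is a TALE homeodomain partner of the Hox proteins, and Hoxa9 and Hoxb5 are homeobox genes. Nkx2-3 is an NK-type homeobox gene, Mycn belongs to the Myc family, Tcf15 is a bHLH factor linked to stem cell quiescence, and Mllt3 (AF9) is a reader of acetylated histones in the super elongation complex. Total body irradiation kills dividing progenitors and damages the stem cells that must replace them.

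Promoter windows of 250 bases before to 50 after the RefSeq start were at hand for 8 of the 10 genes, 10 promoters in all. The stretches shown are those of the pair of genes that differed most between Control and IR, and of Meis1, the gene detected in most Cd34+Adgrl4+ cells. They come from RefSeq on GRCm38.p6, and none of them was measured here. The capitals mark the letters TGACGT, the core of the cyclic AMP response element (TGACGTCA when complete), in Hlf and Nkx2-3, and the reverse complement of the ETS motif CCGGAAGT in Meis1.
Hlf, chr11:90390918-90390966, minus strand: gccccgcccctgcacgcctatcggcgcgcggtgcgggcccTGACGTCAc
Nkx2-3, chr19:43612218-43612303, plus strand: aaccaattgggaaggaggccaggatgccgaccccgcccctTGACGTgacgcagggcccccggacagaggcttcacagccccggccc
Meis1, chr11:19018970-19019022, minus strand: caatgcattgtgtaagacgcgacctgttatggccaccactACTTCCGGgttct

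Both strands were searched. The complete element occurred in 1.79% of 32851 promoters and, among the 10 promoters of these genes, in that of Hlf. Its core, which overlaps the complete element, occurred in 7.51% of promoters and in those of Hlf and Nkx2-3. The ETS letters were in 3.89% of promoters and in that of Meis1, the GATA letters AGATAA in 11.2% and in none of the 10, and the MEIS letters TGACAG in 19.2% and in 1 promoter each of Mecom, Mllt3 and Mycn. Mecom and Prdm16 shared a stretch of 24 bases in the same orientation, whereas the next longest stretch shared by promoters of different members was 14 bases. How often promoters of other genes share a stretch of that length was not tested. A match is a run of letters in a window and not a bound site.

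The libraries held 12200, 11951 and 11884 barcodes in Control, IR and IR+CBD. After filtering for at least 200 genes and at most 5% of UMIs from mitochondrial genes, 10674, 10345 and 10273 cells remained, with medians of 12479.5, 14211 and 12502 UMIs and 194839224, 202361682 and 173466089 UMIs in all. Among them, 176 cells carried a barcode that also occurred in another library. Levels are counts per 1000000 UMIs (CPM), summed over a set of cells. Since the kit reads the 3′ end, levels are compared between cells and libraries and not between genes.

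A total of 6 overlapping sets of cells were defined by raw UMIs of genes outside the group. They were Cd34 of at least 1 with Adgrl4 of at least 1 (Cd34+Adgrl4+), Flt3 of at least 2 with Dntt of at least 1 (Flt3+Dntt+), Mpo of at least 5, Itga2b of at least 2, Klf1 of at least 2 and Cd79a of at least 2. Cd34 and Adgrl4 were taken to mark early progenitors, Flt3 with Dntt lymphoid-primed progenitors, Mpo granulocyte-monocyte progenitors, Itga2b megakaryocyte-lineage cells, Klf1 erythroid cells and Cd79a B-lineage cells. The Cd34+Adgrl4+ set was intended as the stem cell gate, but its leading markers were those of granulocyte-monocyte progenitors. The 5 markers of that type (Mpo, Elane, Ctsg, Prtn3, Ms4a3) summed to 12219, 14584 and 14937 CPM in it, against 665, 514 and 569 CPM for 7 stem and multipotent progenitor markers. Of its cells, 69.0%, 87.4% and 83.4% in the 3 libraries also had 5 or more Mpo UMIs. It is therefore named by its genes here. Itga2b+ and Flt3+Dntt+ cells were mixed too. In Itga2b+ cells the granulocyte-monocyte markers summed to 5682, 5276 and 5087 CPM, against 1141, 482 and 861 CPM for 5 megakaryocyte markers. Of these cells 56.9%, 46.2% and 47.1% were also Cd34+Adgrl4+. In Flt3+Dntt+ cells the granulocyte-monocyte sums were 3097, 2578 and 2833 CPM, against 1553, 1544 and 1473 CPM for the lymphoid-primed list.

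Cells that met the Cd34+Adgrl4+ rule and none of the other 5 came closer to the label by marker sums, which the rule partly sets. In them the stem and multipotent progenitor markers summed to 1660, 1402 and 1435 CPM and the granulocyte-monocyte markers to 773, 747 and 679 CPM. Adgrl4, a gene of the gate, gave 1095, 817 and 945 CPM of the stem and multipotent progenitor sums. Mpo is in the granulocyte-monocyte list, and the rule left out Mpo+ cells. These sums are therefore no independent test of the label. T cell, endothelial and stromal markers summed to under 4 CPM each in every library. The NK cell list (Nkg7 above all) summed to 191, 311 and 298 CPM and the lymphoid-primed list to 419, 435 and 407 CPM. The neutrophil markers Ltf, Camp, S100a8, Ngp and Ly6g still summed to 5745, 6694 and 5916 CPM, and the part of these lists in the results was not tested. This narrow set held 411 Control, 109 IR and 168 IR+CBD cells, and 102, 26 and 32 of those also had a Procr UMI. Procr encodes EPCR, a surface marker of mouse stem cells.

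The first question was how much of each factor remained after irradiation. Over all kept cells 6 of the 10 genes were at least 1.5-fold lower in IR than in Control (Nkx2-3, Hlf, Prdm16, Meis1, Mycn and Mecom), against 8.95% of the 19109 genes with at least 100 UMIs. One gene, Hoxb5, was at least 1.5-fold higher, against 4.79% of genes. All 10 passed the minimum of UMIs. The median log2 ratio of the 10 genes was -0.61, and that of all genes was -0.05. Mecom lay on the threshold, at 0.666 (0.644 to 0.688).

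**Figure D1:**
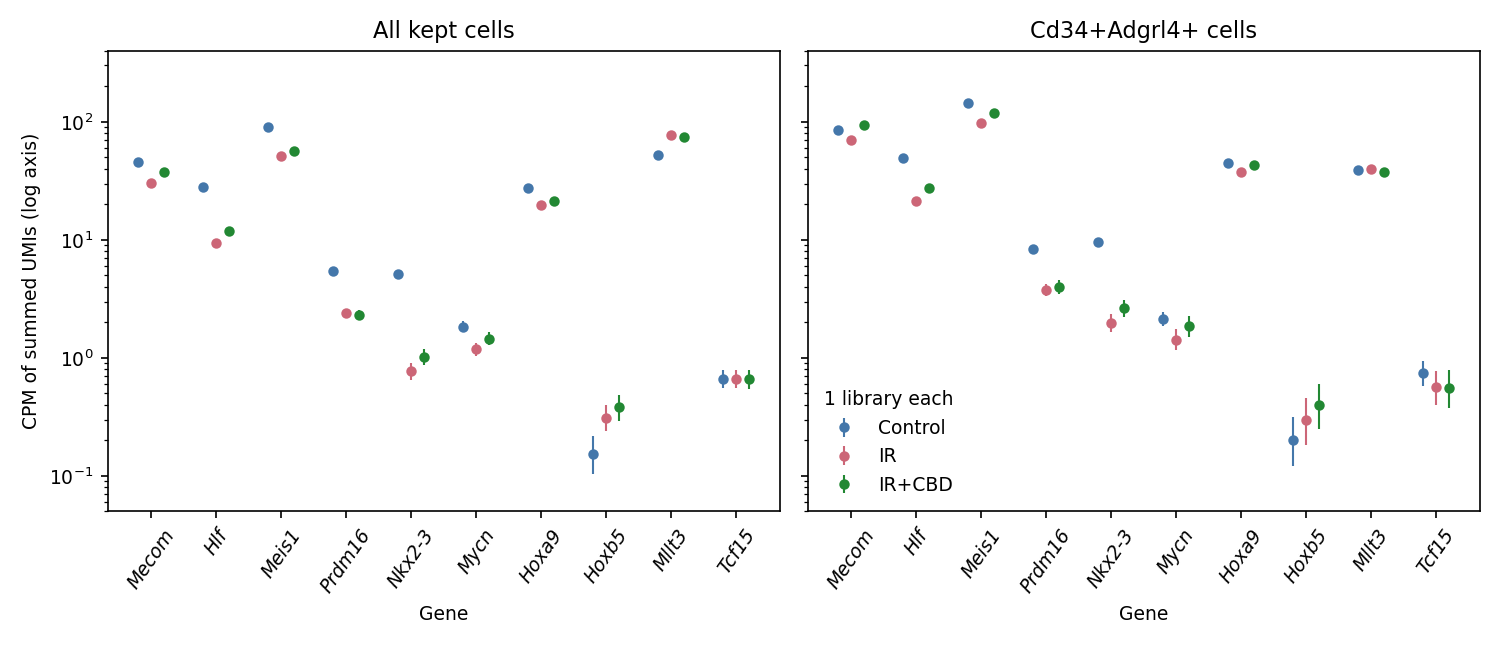
CPM of summed UMIs (log axis) of the 10 genes in the Control, IR and IR+CBD libraries, over all kept cells (left) and in Cd34+Adgrl4+ cells (right); points are single libraries and bars exact Poisson 95% intervals. Nkx2-3, Hlf and Prdm16 sit lower in both irradiated libraries than in Control in both panels, while Mllt3 is higher over all cells (52.2, 77.6 and 73.8 CPM) and level in Cd34+Adgrl4+ cells (39.1, 39.7 and 37.3 CPM).

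Nkx2-3 differed most. It counted 1000, 156 and 177 UMIs, or 5.13, 0.771 and 1.02 CPM. The IR to Control ratio was 0.15 (0.126 to 0.178). A UMI of Nkx2-3 was seen in 5.05%, 0.831% and 1.05% of cells, while its positive cells held 1.86, 1.81 and 1.64 UMIs each. The lower level thus appeared as fewer positive cells, and the irradiated libraries sat together, well below Control. Of the positive cells 57.1%, 59.3% and 71.3% held a single UMI. At such counts a lower level in every cell would also appear as fewer positive cells, so these values cannot tell the 2 apart.

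Hlf stood at 28.1 CPM (27.4 to 28.9) in Control, against 9.42 (9.01 to 9.86) in IR and 11.8 (11.3 to 12.4) with CBD. Its IR to Control ratio was 0.335 (0.318 to 0.353), with 18.8%, 8.82% and 10.6% of cells positive. Here the UMIs per positive cell were lower as well, at 2.73, 2.09 and 1.89. Prdm16 had 5.44, 2.39 and 2.29 CPM and a ratio of 0.439 (0.393 to 0.489).

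Meis1 had 90.2, 51.6 and 56.8 CPM, a ratio of 0.572 (0.558 to 0.586). Its partner Hoxa9 had 27.7, 19.9 and 21.3 CPM and stayed inside the 1.5-fold limits at 0.718 (0.689 to 0.748). Both were lower in the irradiated libraries than in Control, Meis1 by more. Mycn, with 357, 240 and 253 UMIs, had a ratio of 0.647 (0.547 to 0.764).

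Mllt3 went the other way. Its level was 52.2 CPM in Control, against 77.6 in IR and 73.8 with CBD, a ratio of 1.49 (1.45 to 1.53) just under the limit. The share of positive cells hardly moved, at 35.2%, 38.0% and 33.4%, whereas positive cells held 2.71, 4.00 and 3.73 UMIs each. Klf1+ cells were 5.49%, 14.0% and 11.5% of the libraries in the same order, and held 35.2%, 66.6% and 65.3% of all Mllt3 UMIs.

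Hoxb5 and Tcf15 were near the limit of detection. Hoxb5 counted 30, 63 and 66 UMIs and Tcf15 130, 135 and 115. The Hoxb5 ratio was 2.02 (1.29 to 3.24). It was 1.07 (0.322 to 3.59) when cells were thinned to 5000 UMIs and shallower ones left out, which changed both the cells and the depth. Its antisense neighbour Hoxb5os, which overlaps it on the opposite strand, counted 35, 69 and 81 UMIs over the same cells. The Tcf15 ratio was 1.00 (0.780 to 1.28).

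The mixture of cells differed between the libraries, so the levels were also computed with each of 7 exclusive classes of cells weighted by its share of Control UMIs. With this weighting the IR to Control ratio stayed past 1.5-fold for Nkx2-3 (0.210), Hlf (0.454) and Prdm16 (0.513), and for Hoxb5 (1.80). It came to 0.732 for Meis1, 0.733 for Mycn, 0.871 for Hoxa9 and 0.895 for Mecom, and to 1.06 for Mllt3. Mecom, Meis1 and Mycn were thus past the limit in the libraries as loaded and not with these classes weighted alike. The mixture inside a class was not made equal. All Cd34+Adgrl4+ cells formed 1 class, in which Mpo+ cells were 69.0%, 87.4% and 83.4% in Control, IR and IR+CBD. Flt3+Dntt+ cells were 22.4%, 7.79% and 8.27% of it.

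Cd34+Adgrl4+ cells numbered 3116 (29.2%) in Control, but 1952 (18.9%) in IR and 1970 (19.2%) with CBD. The share in IR was 0.646 times that in Control (0.611 to 0.684), and the share in IR+CBD was 1.02 times that in IR (0.954 to 1.08). The narrow set in no other gate was smaller in IR by more, 0.274 times its Control share (0.219 to 0.339), and its share in IR+CBD was 1.55 times that in IR (1.21 to 1.99). Its rule excludes cells by raw UMIs and so depends on depth. The medians of the narrow set were 12778, 18580 and 15729 UMIs, and its share was not taken after thinning. Median UMIs per cell in the wide set were 27462.5, 32784.5 and 26468.5, and Adgrl4 itself had 384, 231 and 287 CPM in it, so the gating gene moved with the size of the set while depth was highest in IR. The part of Adgrl4 in it was not tested. Thinned to 5000 UMIs before gating, with the 2798, 3017 and 2902 shallower cells left out, the libraries held 17.7%, 7.93% and 10.5%, of 7876, 7328 and 7371 cells.

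Inside Cd34+Adgrl4+ cells, 4 of the 10 genes were at least 1.5-fold lower in IR than in Control: Nkx2-3, Hlf, Prdm16 and Mycn. In these cells 9.73% of the 17829 genes with at least 50 UMIs were that much lower and 3.61% that much higher, the latter with none of the 10. The median log2 ratio of the 10 genes was -0.47, and that of all genes -0.05.

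Nkx2-3 stood at 9.55 CPM (8.94 to 10.2) in Control, against 1.98 (1.66 to 2.35) in IR and 2.64 (2.23 to 3.11) with CBD, a ratio of 0.207 (0.171 to 0.249). Hlf had 49.3, 21.5 and 27.7 CPM and a ratio of 0.437 (0.412 to 0.464), and Prdm16 8.29, 3.77 and 3.99 CPM and a ratio of 0.454 (0.393 to 0.524). For all 3 genes the intervals of both irradiated libraries lay below that of Control. Mycn, with 204, 96 and 103 UMIs, had a ratio of 0.665 (0.516 to 0.852).

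The other large members were closer to Control. Meis1 had 143, 97.3 and 119 CPM, Mecom 84.5, 69.7 and 93.5 CPM and Hoxa9 45.0, 37.7 and 42.8 CPM. Their ratios were 0.679 (0.659 to 0.700), 0.825 (0.796 to 0.856) and 0.838 (0.798 to 0.881). In each, IR was the lowest library, and Mecom in IR+CBD was above Control, at 1.11 times its level (1.07 to 1.15). Mllt3 differed little, with a ratio of 1.01 (0.965 to 1.07).

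As the set narrowed toward cells with stem cell markers, the distance between IR and Control shrank for Hlf and Nkx2-3. From all cells to those in no other gate the ratio also went from 0.572 to 0.960 for Meis1 and from 0.439 to 0.801 for Prdm16. The first step of Prdm16, to 0.454, was within counting error. With only Procr added to Cd34 and Adgrl4, Prdm16 had 26.3, 15.4 and 28.9 CPM in Control, IR and IR+CBD. For Hlf the ratio was 0.335 over all cells, 0.437 in Cd34+Adgrl4+ cells, 0.566 (0.503 to 0.635) in those in no other gate and 0.782 (0.660 to 0.923) in those that also had Procr. For Nkx2-3 the same steps gave 0.15, 0.207, 0.501 (0.379 to 0.654) and 0.683 (0.452 to 1.01). The levels themselves went up at each step, and in the last set Hlf had 427, 334 and 330 CPM and Nkx2-3 87.9, 60.0 and 93.0 CPM.

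In the narrow set without a requirement for Procr, Mecom was higher in IR than in Control, with 502, 595 and 546 CPM and a ratio of 1.19 (1.11 to 1.26). Meis1 had 481, 462 and 451 CPM there, a ratio of 0.960 (0.894 to 1.03), and Prdm16 47.9, 38.3 and 27.2 CPM, a ratio of 0.801 (0.622 to 1.02). Thus Mecom and Meis1, which were lower in IR over all cells, were not lower by more than counting error in this fraction. Tcf15 had 31, 24 and 21 UMIs, a ratio of 1.97 (1.11 to 3.47). UMIs of 1 cell are not independent, and the 523 Mecom UMIs of the last IR set came from 26 cells, so the intervals of the small sets are too narrow.

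**Figure D2:**
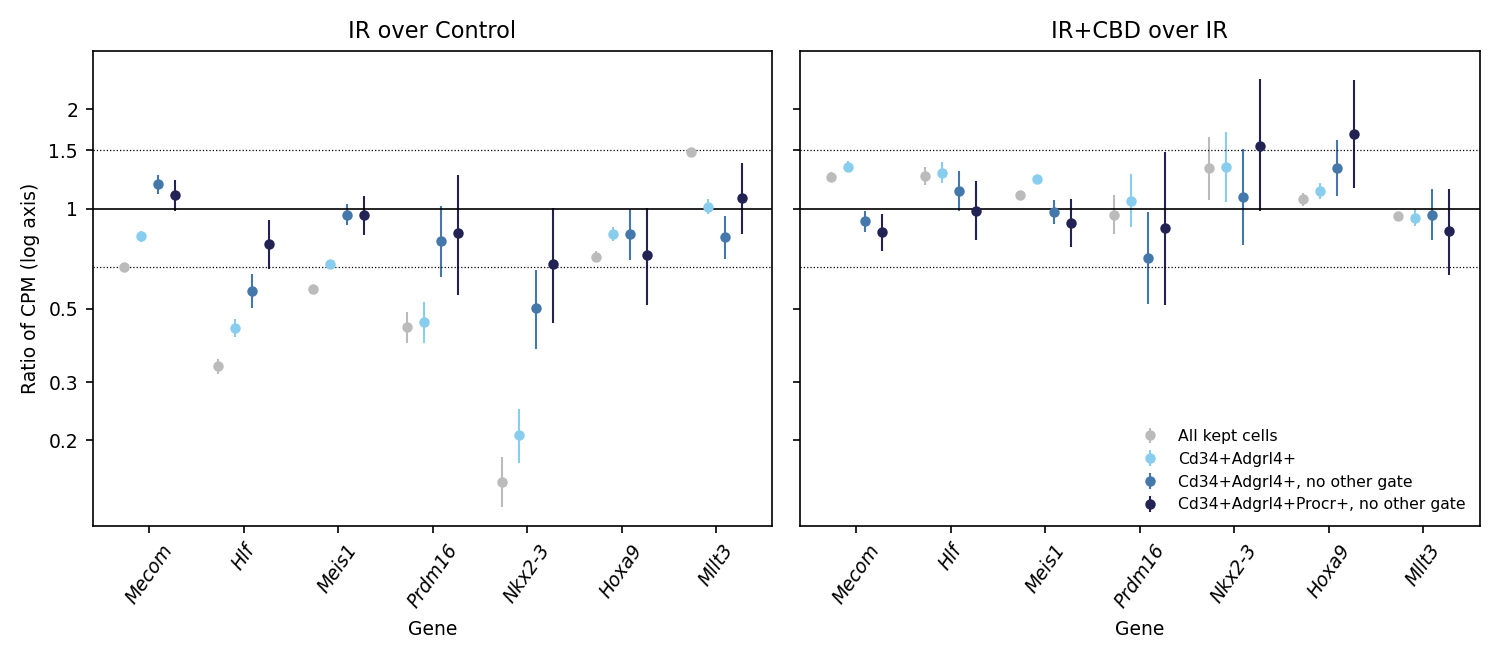
Ratio of CPM (log axis) for IR over Control (left) and IR+CBD over IR (right) of 7 genes in 4 successively narrower sets of cells, from all kept cells (grey) to Cd34+Adgrl4+Procr+ cells in no other gate (dark blue, 102, 26 and 32 cells); bars are 95% intervals for counting error and dotted lines mark 1.5-fold. The Hlf ratio of IR to Control goes from 0.335 to 0.782 and that of Nkx2-3 from 0.15 to 0.683, while Mecom passes from 0.666 to above 1.

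The second question was whether CBD changed the level of the factors in irradiated marrow. None of the 10 genes differed by 1.5-fold between IR+CBD and IR, over all cells or in Cd34+Adgrl4+ cells. Over all cells 2.49% of genes were that much higher and 2.50% that much lower in IR+CBD, and in Cd34+Adgrl4+ cells 4.71% and 3.66%. The median log2 ratio of the 10 genes was 0.21 over all cells and 0.33 in Cd34+Adgrl4+ cells, beside 0.00 and 0.02 for all genes.

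Smaller differences exceeded counting error. In Cd34+Adgrl4+ cells the IR+CBD to IR ratio was 1.34 (1.29 to 1.39) for Mecom, 1.33 (1.05 to 1.70) for Nkx2-3, 1.29 (1.20 to 1.38) for Hlf, 1.23 (1.19 to 1.27) for Meis1 and 1.13 (1.07 to 1.20) for Hoxa9. For Prdm16 it was 1.06 (0.881 to 1.27), and for Mllt3 0.940 (0.887 to 0.996). In the narrow set in no other gate the ratio was 0.918 (0.852 to 0.988) for Mecom, 0.977 (0.899 to 1.06) for Meis1 and 1.13 (0.986 to 1.30) for Hlf. There it was 1.32 (1.09 to 1.61) for Hoxa9, 0.710 (0.515 to 0.977) for Prdm16 and 1.08 (0.779 to 1.51) for Nkx2-3. Mecom was thus higher with CBD in the wide set and lower in the narrow one, and Hoxa9 higher in both.

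Requiring Procr inside Cd34+Adgrl4+ cells, whatever other gate they met, left 260, 97 and 89 cells. Of the 8 genes with at least 50 UMIs there, 4 were at least 1.5-fold higher in IR+CBD than in IR, against 6.67% of 10720 genes: Mycn (2.13, 1.03 to 4.52), Nkx2-3 (1.99, 1.33 to 2.98), Prdm16 (1.87, 1.28 to 2.76) and Mecom (1.56, 1.43 to 1.71). With the other gates removed as well, the ratio was 0.849 (0.747 to 0.965) for Mecom, 0.873 (0.511 to 1.48) for Prdm16, 1.55 (0.988 to 2.46) for Nkx2-3 and 1.56 (0.553 to 4.75) for Mycn. Mecom thus changed direction with the choice of Procr+ cells. In cells gated by Kit and Procr instead, 3 genes (Mecom, Prdm16 and Mycn) were that much higher with CBD, against 5.69% of genes, and 1 (Nkx2-3) was that much lower in IR than in Control, against 6.26%.

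Against Control, IR+CBD had 4 genes at least 1.5-fold lower over all cells (Nkx2-3, Hlf, Prdm16 and Meis1) against 7.69% of genes, and Hoxb5 higher against 3.77%. In Cd34+Adgrl4+ cells 3 were lower (Nkx2-3, Hlf and Prdm16) against 7.33%, and Hoxb5, on 22 and 19 UMIs, was higher against 3.21%. The ratios in those cells were 0.277 (0.231 to 0.330) for Nkx2-3, 0.562 (0.530 to 0.595) for Hlf and 0.481 (0.413 to 0.559) for Prdm16. All comparisons share libraries, so their values are not independent of each other.

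Levels were also ranked among the 6 gates, and the order was much the same in the 3 libraries. Hlf, Nkx2-3 and Hoxa9 were highest in Flt3+Dntt+ cells in all 3. Hlf had 68.4, 31.0 and 31.1 CPM there, Nkx2-3 24.2, 7.15 and 3.96 CPM and Hoxa9 78.7, 81.2 and 76.7 CPM. In Control each of these 3 levels lay clear of that in the next gate, Cd34+Adgrl4+ cells, but in IR and IR+CBD the intervals of Hlf in Flt3+Dntt+ and Itga2b+ cells overlapped, as did those of Nkx2-3 in IR+CBD. Flt3+Dntt+ cells were 7.78%, 1.70% and 1.92% of the libraries, and 82.7% to 86.4% of them were also Cd34+Adgrl4+. Cd34+Adgrl4+ cells with fewer than 5 Mpo UMIs, which were not a gate, had higher levels than Flt3+Dntt+ cells, by little for Hoxa9. Hlf stood at 157, 100 and 111 CPM in them, Nkx2-3 at 43.7, 19.9 and 18.2 CPM and Hoxa9 at 88.8, 85.0 and 89.1 CPM.

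Hoxa9 and Hlf thus parted within Flt3+Dntt+ cells. Between Control and IR, Hoxa9 had a ratio of 1.03 (0.926 to 1.15) and Hlf one of 0.453 (0.383 to 0.532). Nkx2-3 in the same cells had an IR to Control ratio of 0.295 (0.207 to 0.410). Its ratio of IR+CBD to IR was 0.553 (0.309 to 0.964), from 21 and 39 UMIs, whereas it was 2.10 (1.15 to 3.95) in Mpo+ cells, from 34 and 18 UMIs.

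Meis1 and Mycn were highest in Itga2b+ cells in all 3 libraries, Meis1 with 291, 260 and 307 CPM, and so was Tcf15. The interval of Mycn overlapped that in Flt3+Dntt+ cells in IR+CBD, and that of Tcf15 overlapped Klf1+ cells in IR. In Cd34+Adgrl4+ cells with fewer than 5 Mpo UMIs, Meis1 was higher still (398, 388 and 409 CPM), as was Mecom (298, 395 and 405 CPM). Tcf15 had 3.12, 4.67 and 4.58 CPM in those cells, in Control below its level in Itga2b+ cells (3.42 CPM). Among the gates Mecom was highest in Flt3+Dntt+ cells in Control (122 CPM, against 84.9 in Itga2b+ cells). In IR its levels in these gates did not differ beyond their intervals (114 and 115 CPM), and in IR+CBD Itga2b+ cells led (181 against 138 CPM). In Itga2b+ cells Mecom was higher in IR than in Control by 1.36-fold (1.25 to 1.47) and higher in IR+CBD than in IR by 1.57-fold (1.46 to 1.69). Prdm16 had 8.81, 7.80 and 7.95 CPM in Itga2b+ cells, with an IR to Control ratio of 0.885 (0.662 to 1.18), so there the difference was within counting error.

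Mllt3 had its own order. It was highest in Klf1+ cells in all 3 libraries, with 147, 165 and 174 CPM, followed by Itga2b+ and Cd79a+ cells, whose intervals overlapped in each library, and it was lowest in Mpo+ cells (27.1, 32.9 and 30.6 CPM). In Klf1+ cells Mecom, Hlf, Meis1, Nkx2-3 and Mycn had their lowest level in every library, although the interval of Mycn overlapped that in Mpo+ cells in all 3, and that of Nkx2-3 overlapped a neighbouring gate in IR and IR+CBD. Within Klf1+ cells the IR to Control ratio of Mllt3 was 1.12 (1.08 to 1.17). Hoxb5 in those cells counted 3, 31 and 25 UMIs, and in the order of its gates every neighbouring pair of intervals overlapped.

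**Figure D3:**
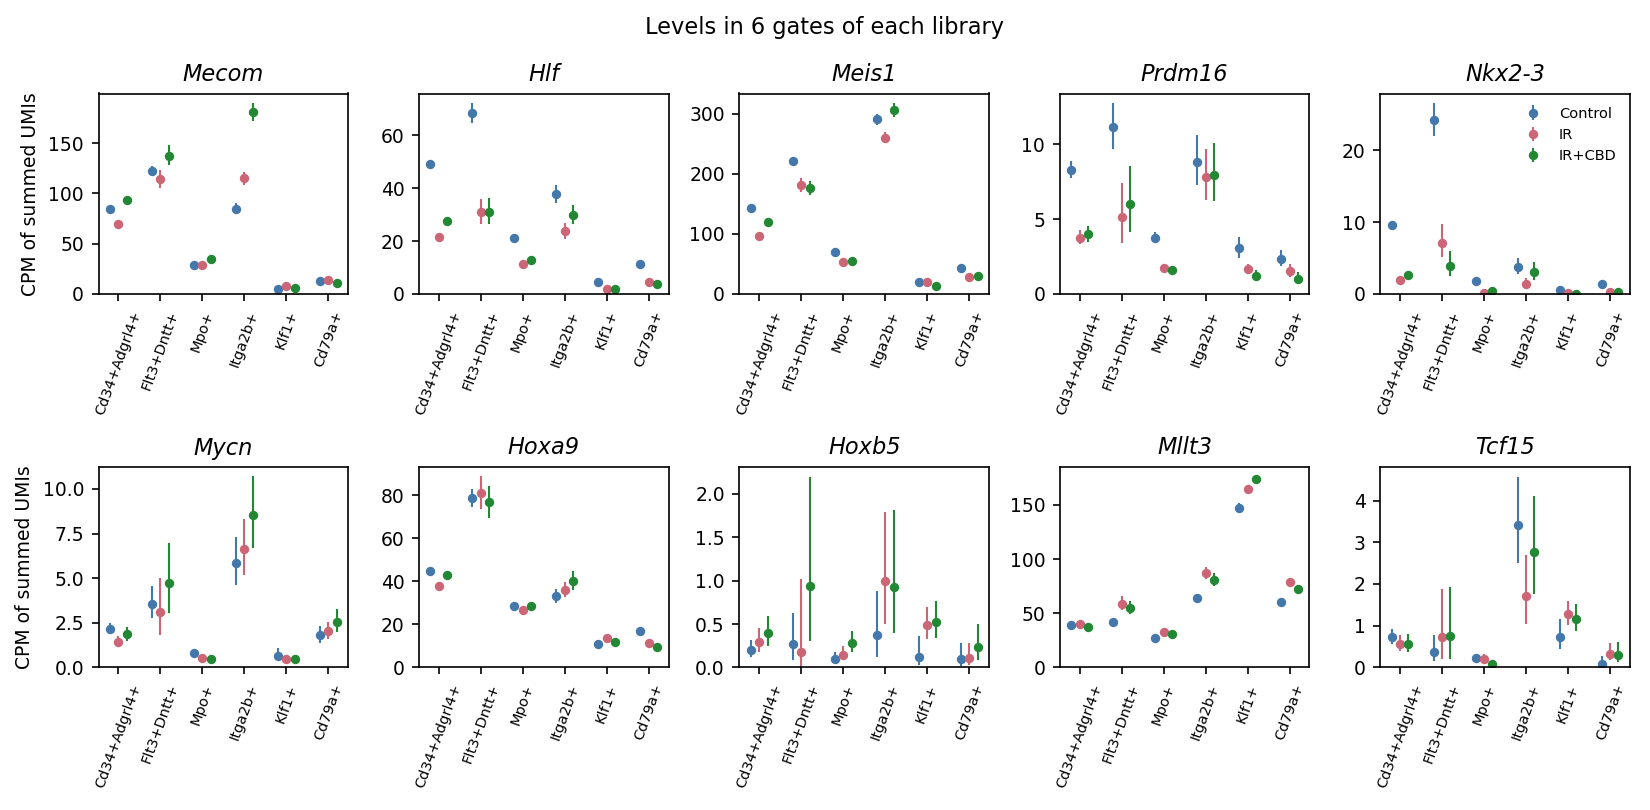
CPM of summed UMIs (linear axes from 0, a scale for each gene) of the 10 genes in 6 gates of the Control, IR and IR+CBD libraries; bars are exact Poisson 95% intervals and the gates overlap. Among these gates Hlf, Nkx2-3 and Hoxa9 are highest in Flt3+Dntt+ cells, Meis1, Mycn and Tcf15 in Itga2b+ cells, and Mllt3 in Klf1+ cells at 147, 165 and 174 CPM. The Cd34+Adgrl4+ gate consists mostly of Mpo+ cells.

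Across the 18 points given by 6 gates in 3 libraries, each gene was set against the mean of the other 9. The correlation was 0.91 for Meis1 and Prdm16, 0.87 for Mecom, 0.82 for Mycn and 0.75 for Hlf, lower for Tcf15 (0.52) and Hoxb5 (0.51), and -0.28 for Mllt3. The points share libraries and cells, so these are descriptions. The 8 genes outside the group with the profile most like its mean, among 16872 genes, were Hoxa10 (0.98), 2900018N21Rik, Ctla2a, Gm37818, Adgrg1, Ltc4s, Pde10a and Spns2 (0.95). 2900018N21Rik and Gm37818 lie within Meis1 on its strand, so their counts and those of Meis1 cannot be fully told apart. Hoxa10, a neighbour of Hoxa9, had 3.45, 1.64 and 2.17 CPM in Cd34+Adgrl4+ cells, a ratio of 0.474 (0.378 to 0.590) for IR over Control, and Ctla2a had 275, 117 and 185 CPM.

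Within Cd34+Adgrl4+ cells the group was split by genes that are no members, and the direction was compared in each of 3 libraries, for which the smallest two-sided p of an exact sign-flip test is 0.25. All 10 genes were higher in cells with Procr than in cells without it in 3 of 3 libraries. Cells with Procr were shallower, with medians of 19483.5, 29007 and 25282 UMIs against 28081, 32877 and 26536, and the part of depth was not tested. Mecom was 4.42, 4.73 and 5.56 times higher in Control, IR and IR+CBD, Hlf 3.86, 5.69 and 5.37 times, and Nkx2-3 4.02, 10.1 and 17.5 times. Hoxa9 differed less, at 1.59, 1.69 and 1.75 times. Of the 10, the interval held 1 for Hoxb5 in IR and IR+CBD.

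Cells with at least 1 UMI of 6 cell division genes (Mki67, Top2a, Ube2c, Ccnb1, Cenpf, Birc5) had less of all 10 genes in 3 of 3 libraries. Such cells were 92.2%, 97.4% and 95.8% of the set, so the split does not single out dividing cells. Cells without such a UMI were few (242, 50 and 82) and shallower, with medians of 12062.5, 14885 and 13366.5 UMIs against 29063.5, 33180.5 and 27115.5. Nkx2-3 in cells with such a UMI was at 0.151, 0.0992 and 0.0705 of its level in the others, Hlf at 0.224, 0.313 and 0.221, and Mecom at 0.280, 0.322 and 0.295. Prdm16 was at 0.273 and 0.263 in Control and IR+CBD, but at 0.972 (0.329 to 4.75) in IR. The interval also held 1 for Mycn and Mllt3 in IR, for Tcf15 in IR+CBD and for Hoxb5 in Control and IR. The part of depth in this split was not tested.

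Cells with 5 or more Mpo UMIs had less of all 10 genes in 3 of 3 libraries, with Nkx2-3 at 0.0556, 0.0147 and 0.0357 of its level in the rest and Hoxa9 at 0.404, 0.391 and 0.414. These cells were deeper, with medians of 34818, 34130.5 and 28373 UMIs against 15047, 21638 and 17171. The part of depth was not tested here either. Cells with Flt3 had more of 8 genes in 3 of 3 libraries. Nkx2-3 stood out there too, at 4.64, 3.62 and 4.20 times, whereas Mllt3 in IR was at 1.00 (0.926 to 1.08). Hoxb5 was higher in 2 libraries and Tcf15 in 1.

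**Figure D4:**
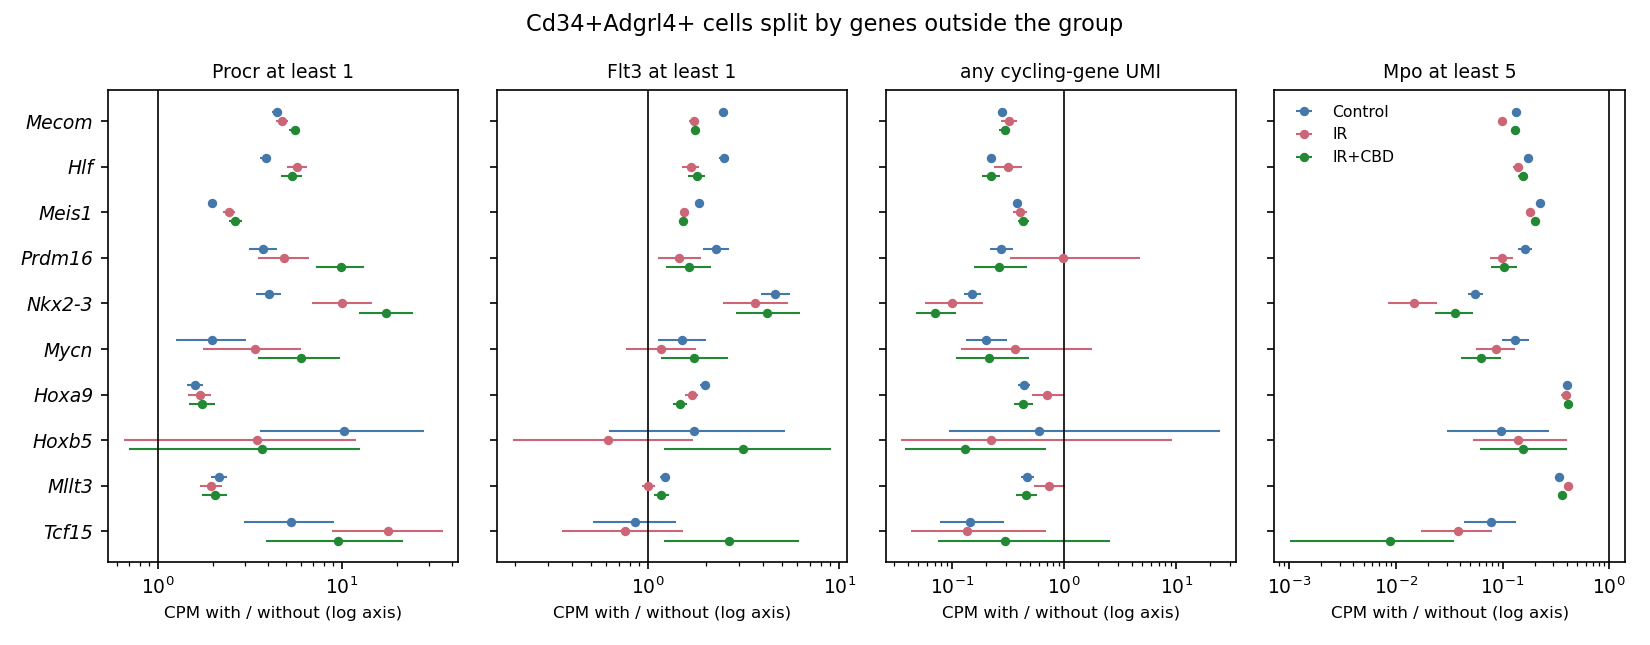
Ratio of CPM (log axis) between Cd34+Adgrl4+ cells with and without Procr, Flt3, cell division gene UMIs, or 5 or more Mpo UMIs, for the 10 genes in each library, with 95% intervals for counting error. All points of the Procr panel lie right of 1, and all points of the cell division and Mpo panels lie left of it, Prdm16 in IR at 0.972.

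Since depth differed, shares of positive cells were also compared after each cell had been thinned to 5000 UMIs. The cells were gated on UMIs before thinning, so which cells entered a set still depended on depth. Of Cd34+Adgrl4+ cells, Hlf was then detected in 692 of 3103 (20.8% to 23.8%) in Control, 185 of 1948 (8.23% to 10.9%) in IR and 236 of 1968 (10.6% to 13.5%) with CBD, while the shares had been 49.3%, 30.9% and 34.3% before thinning. Too shallow to thin were 13, 4 and 2 of these cells and 2022, 2581 and 2281 Cd79a+ cells in no other gate. These B-lineage cells should lack Hlf, and those deep enough had it in 1.05%, 0.344% and 0.229%. Before thinning the median depths of the cells compared were 27554, 32803 and 26478.5 UMIs in the first set and 9391, 9242 and 8547 UMIs in the second. Nkx2-3 was detected in 7.35%, 1.23% and 1.47% of Cd34+Adgrl4+ cells, against 15.6%, 3.74% and 4.47% before thinning, and in 0.174%, 0.0860% and 0.114% of Cd79a+ cells in no other gate. Both genes lay above this background in every library. Mllt3 was in 18.4%, 15.7% and 16.3% of Cd34+Adgrl4+ cells and in 26.0%, 25.8% and 24.2% of those Cd79a+ cells. Its level was higher in Cd79a+ than in Cd34+Adgrl4+ cells in every library, so they are no background for Mllt3.

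Several members were often found in the same cell. At 5000 UMIs at least 3 of the 10 were detected in 22.6% (21.2 to 24.1) of Cd34+Adgrl4+ cells in Control, against 10.5% (9.15 to 11.9) in IR and 15.1% (13.5 to 16.7) with CBD, and in 0.523%, 0.258% and 0.114% of Cd79a+ cells in no other gate. In the narrow set in no other gate the shares were 68.4% (63.6 to 72.9), 58.9% (49.0 to 68.3) and 66.9% (59.2 to 74.0), and these intervals overlapped. No member was detected in 33.0%, 45.3% and 39.2% of Cd34+Adgrl4+ cells. IR+CBD lay between the other libraries in the wide set. Here too the cells were gated before thinning.

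Of the 45 pairs of members, 15 had an expected count of at least 5 cells, from the product of their shares, in all libraries. All 15 were found together more often than that product in 3 of 3 libraries. The product assumes a uniform set of cells, whereas the Mpo+ part of this set had less of every member in 3 of 3 libraries. Such a mixture by itself puts joint detection above the product. The ratios therefore cannot tell whether members go together among cells of the same type. Mecom with Prdm16 was at 2.74, 3.22 and 2.76 times the product, Mecom with Hlf at 2.23, 2.58 and 2.37 times and Hoxa9 with Mllt3 at 1.23, 1.18 and 1.38 times.

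**Figure D5:**
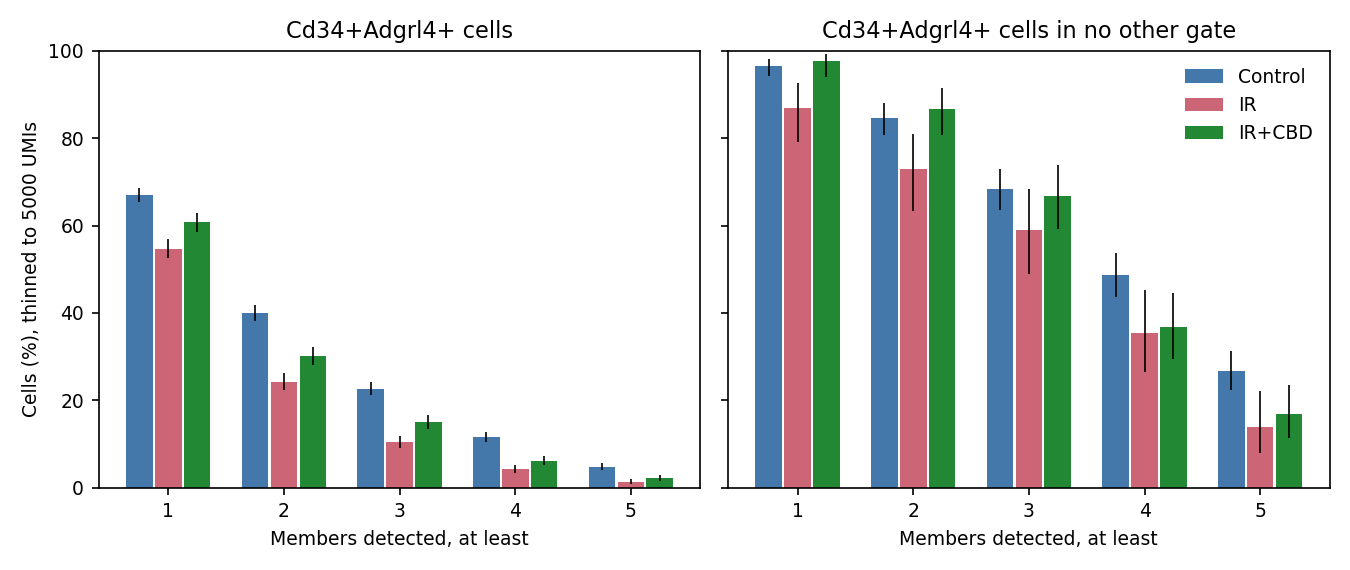
Share of cells (%, from 0) in which at least 1 to 5 of the 10 genes were detected after thinning to 5000 UMIs, for Cd34+Adgrl4+ cells (left) and those in no other gate (right), with exact 95% intervals. Cells were gated before thinning. At 3 or more genes the left panel reads 22.6%, 10.5% and 15.1% and the right panel 68.4%, 58.9% and 66.9% for Control, IR and IR+CBD.

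Other genes of the stem cell programme were set beside the group in Cd34+Adgrl4+ cells, as 2 lists. Of 28 other transcription and chromatin regulators of stem cells, none was at least 1.5-fold higher in IR than in Control and 4 were lower, where 3.61% and 9.73% of all genes were. Among the 4 were Nr4a1 (0.260, 0.248 to 0.273), Egr1 (0.399, 0.387 to 0.412) and Hoxa10. Nr4a1 and Egr1 are immediate early genes linked to stem cell quiescence. The other 24 lay within the limits, among them Runx1, Gata2, Erg, Fli1, Lmo2 and Tal1, and the median log2 ratio of the list was -0.05. With CBD, 1 gene of the list was at least 1.5-fold higher than in IR, Nr4a1 at 1.62-fold (1.53 to 1.71), and none was lower. Of all genes, 4.71% were that much higher and 3.66% that much lower.

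Of 20 other genes associated with stem cells, 14 were at least 1.5-fold lower in IR than in Control and 1 was higher, beside the same shares of all genes, with a median log2 ratio of -0.91. Among them were Robo4 (0.148, 0.0717 to 0.276), Gprasp2 (0.197, 0.109 to 0.333) and Emcn (0.218, 0.171 to 0.275). Ly6a, which encodes Sca-1, was the gene that was higher, with 17.6, 39.7 and 11.4 CPM in Control, IR and IR+CBD. Between IR+CBD and IR, 4 genes were at least 1.5-fold higher, where 4.71% of all genes were, among them Fgd5 (1.92, 1.16 to 3.24), Esam and Pdzk1ip1. Only Ly6a was that much lower (0.287, 0.263 to 0.313), where 3.66% of all genes were. Over all cells the list of regulators had 1 gene higher and 5 lower in IR than in Control, and the list of associated genes 2 higher and 12 lower, where 4.79% of all genes were higher and 8.95% lower.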

How the data were processed

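UMI counts per gene and cell were deposited by the authors for 3 libraries of 10x Genomics 3′ chemistry, 1 per condition, as whole numbers with no normalization. According to the file headers the deposited counts came from Cell Ranger 7.0.1, while the submitters' processing notes name Cell Ranger 4.0 and GRCm39. Whether intronic reads were counted is not given in the sources used here. The 10 genes, gates and gene lists were chosen with earlier results of these data known.

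Cells with at least 200 genes and at most 5% mitochondrial UMIs were kept, as in the methods. The study then filtered doublets with DoubletFinder, whose calls were not used here. Doublets were left in, and were removed in an alternative (Scrublet in scanpy 1.11.5, 911, 856 and 844 cells). UMIs were summed per gene over a set of cells in each library and divided by the sum of all genes (CPM). Intervals were exact (Poisson for CPM, conditional binomial for ratios, Clopper-Pearson for shares, 95%), and cover counting error only. A gene was called at a ratio of 1.5-fold in either direction, with at least 100 UMIs over the 3 libraries, or 50 within a gate. Cd79a+ cells in no other gate were added as a background set after values were seen. Named genes were all members, at most the 4 furthest list genes in each direction, and the 8 genes with the most similar profile (log2(CPM + 1), at least 200 UMIs). Some list genes that the rule names are not reported here. Promoters came from RefSeq (GRCm38.p6), another build than that of the counts, and were joined by symbol. Gene overlaps were read from the GENCODE M21 annotation of GRCm38. Counts were simulated for IR over Control in 17989 genes, with Poisson counting error only. Of genes with a fold of 0.5, 99.0% were called, as were 100% of those with a fold of 2 and 0.275% of unchanged genes. The simulation held no spread between mice, libraries or cells and no change in the mixture of cells. These shares are therefore not error rates of the rule on the real libraries. Python 3.11.15, numpy 2.4.6, scipy 1.17.1, pandas 2.3.3 and matplotlib 3.10.9 were used.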

Additional observations from a re-analysis of the deposited data

How the results depend on the processing

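No paired analysis was possible because each condition is 1 library. The number of members past 1.5-fold between IR and Control over all cells was 7, and 6 to 7 under 8 of 9 alternatives (a mitochondrial limit of 10%, a minimum of 1000 genes, doublets or shared barcodes removed, median-of-ratios scaling, a minimum of 20 UMIs, CPM without the 50 most abundant genes, and thinning to 5000 UMIs). It was 4 with the classes weighted by their Control shares. With median-of-ratios scaling 2 were higher and 4 lower, against 1 and 6, and in Cd34+Adgrl4+ cells 1 was higher and 3 lower, against 0 and 4. In Cd34+Adgrl4+ cells the count of 4 became 1 with the gate Kit with Procr (6.26% of genes lower), and the count of 0 between IR+CBD and IR became 3 with that gate and 4 with Procr added to Cd34 and Adgrl4, beside 5.69% and 6.67% of genes higher there. The cause was not tested, and these sets held 225, 104 and 79 cells and 260, 97 and 89 cells. In both sets Mycn was on the other side of 1 between IR and Control, at 1.11 and 1.08. The share of gated cells in IR over Control, 0.646, was 0.477 with Kit and Procr, 0.274 in no other gate, 0.385 with Procr and 0.448 after thinning. For IR+CBD over IR, 1.02, these gave 0.765, 1.55, 0.924 and 1.32. Hlf, Nkx2-3 and Prdm16 stayed below 1 for IR over Control under every alternative run. Of 420 ratios of single members under the alternatives, 333 lay within the interval of the main ratio. Pooled mice and 1 library per condition limit every comparison, and Hoxb5, Tcf15 and Mycn are limited by their counts.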
